A study of Mus musculus with 24 samples.

Results

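The genes described here are 37 genes of the lysosome and of autophagy, listed by symbol: 10 for cathepsins and legumain, 10 for other lysosomal hydrolases and a hydrolase activator, 10 for proteins of the lysosomal membrane and of lipid transport, the transcription factor gene *Tfeb*, and 6 for autophagy. A member was kept if a probe annotated to it had a detection p-value under 0.01 in at least 1 of 24 arrays. This held for 35 of the 37 members, among 10378 genes detected and named in the whole series, and *Ctsc* and *Gla* had no detected probe. Of the 35, 32 were above background on all 24 arrays, while *Ctss* was above it on 4 arrays and *Lipa* and *Tfeb* on 1 array each.

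Expression was read on Illumina MouseWG-6 v2.0 arrays from the whole kidney of 24 FVB mice, with 4 mice per group and 1 array for each. TgUmodwt mice carry an HA-tagged wild type *Umod* transgene, and TgUmodC147W mice carry the same transgene with the mutation C147W. M1 stands for males of 1 month, F1 for females of 1 month and F2 for females of 2 months, each with both genotypes. All 6 groups thus carry a transgene under a fragment of the mouse *Umod* promoter, which is active in cells of the thick ascending limb (TAL), beside their own *Umod* genes, and no mouse without a transgene was on the arrays. TAL cells are 1 of many cell types of the kidney, and a whole-kidney level cannot tell fewer cells of a type apart from less RNA per cell.

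Lysosomes are acidic organelles in which hydrolases break down proteins, lipids and glycans that arrive by endocytosis or by autophagy, the enclosure of cytoplasm in a membrane that then fuses with the lysosome. In the kidney, cells of the proximal tubule have many lysosomes because they take up filtered protein, and macrophages are rich in them as well. TFEB, a transcription factor held in the cytoplasm by the kinase mTORC1 at the lysosomal surface, raises many lysosomal and autophagy genes through an E-box-like site in their promoters when it enters the nucleus.

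The core of that site, CACGTG, was looked for between 250 bases before and 50 bases after the start of each gene (RefSeq, assembly GRCm38.p6). The promoter table holds 32 of the 37 members (not *Asah1*, *Becn1*, *Ctsb*, *Ctsh* and *Npc1*). The palindrome CACGTG was present in 10 of the 32 members (31.2%) and in 8.09% of 27025 genes of the table. TCACGTG, read on both strands (its reverse is CACGTGA) and itself holding CACGTG, was present in 8 of 32 members (25%), namely *Atg7*, *Ctsa*, *Ctsd*, *Gla*, *Glb1*, *Lamp1*, *Lgmn* and *Mcoln1*, and in 4.29% of the genes. A match is a run of letters and not a measured binding site. Of these 8 genes *Glb1* and *Ctsd* fell in mutant males, *Atg7*, *Ctsa*, *Lamp1*, *Lgmn* and *Mcoln1* passed the test in none of the 3 comparisons of genotype, and *Gla* was not detected. Stretches of 29 bases around a match are shown for 6 of them, because they set genes that fell beside genes that did not pass the test. The capitals mark the match, and sequences run 5′ to 3′ on the strand of the gene.
Glb1: ctgcttctgagTCACGTGgcctacagagg
Ctsd: cgcccgcgtcTCACGTGAcccgttgaggg
Lamp1: agggcaagataTCACGTGgtccagcgccc
Ctsa: gagcaaactgTCACGTGAtgcagatgctc
Lgmn: tggaatgtctgTCACGTGgtccattttat
Mcoln1: ggcgccccgcTCACGTGAccgcggcgcat
The stretch of *Glb1* lies at chr9:114401018-114401046 on the plus strand, and its match starts 49 bases before the gene's start. That of *Ctsd* lies at chr7:142387908-142387936 on the minus strand, 99 bases before the start, with another match 245 bases before it. That of *Lamp1*, the first of 4 matches in its promoter, lies at chr8:13159088-13159116 on the plus strand, 62 bases before the start. That of *Ctsa* lies at chr2:164833750-164833778 on the plus strand (13 bases before), that of *Lgmn* at chr12:102439125-102439153 on the minus strand (50 bases before), and that of *Mcoln1* at chr8:3500463-3500491 on the plus strand (46 bases before). *Ctsa* had another match 4 bases after the start, and *Mcoln1* had another 72 bases before it. The same core is thus found in promoters of genes that differed between genotypes in males and of genes that did not pass the test.

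Levels are log2 intensities after background correction and quantile normalization, and a difference of 1 on this scale is a doubling. A gene passed the test if limma's adjusted p was under 0.05 on its brightest named probe, over all probes detected. One array needs a remark before the results. In TgUmodC147W F1 replicate 2 the 4 probes of *Xist*, the RNA that coats and silences one of the X chromosomes of a female cell, measured 4.80 to 5.19, as in the 8 male arrays (4.70 to 5.79), whereas the other 15 female arrays measured 9.00 to 12.74. Calls of members that rest on this array are therefore given with and without it. The brightest *Umod* probe, which reads the mouse gene and both transgenes alike, measured 15.76 ± 0.05 (SD, n = 4) in TgUmodwt M1 and 15.88 ± 0.03 in TgUmodC147W M1, and differed by 0.12, 0.09 and 0.11 in M1, F1 and F2, none past the test (limma, adjusted p = 0.223, 0.488 and 0.513). The highest value on any array was 16.02, so this probe lay near the top of the scale, where a difference may be compressed, and saturation was not tested.

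In males of 1 month, 6 of 35 members were higher and 5 were lower in TgUmodC147W than in TgUmodwt kidneys. The 6 include *Tfeb*, which met the detection filter through 1 TgUmodC147W M1 array alone. Leaving out any 1 of the 4 TgUmodwt arrays left 3 higher and 5 lower, and leaving out TgUmodC147W M1 replicate 4 left 3 higher and 6 lower. Among all 10378 genes, 21.6% were higher and 15.3% were lower, against 17.1% and 14.3% of the members. In females of 1 month 3 members were higher and 1 was lower (8.57% and 2.86%), with 9.99% and 7.41% of all genes. Without the *Xist*-low array these counts were again 3 and 1, with *Becn1* past the test and *Npc2* not. In females of 2 months 2 members were higher and 0 lower (5.71% and 0%), with 5.4% and 2.96% of all genes, and 5 higher and 3 lower members had an unadjusted p under 0.05. The shares of members called were thus close to or below those of all genes in each of the 3 comparisons. The median difference over the members was −0.03 in M1, −0.04 in F1 and 0.06 in F2, against 0.04, 0.01 and −0.01 over all genes. Members that did not pass differed by −0.43 to 0.33 in M1, −0.32 to 0.36 in F1 and −0.28 to 0.36 in F2. The −0.43 of *Lipa* in M1 and the 0.36 of *Ctss* in F2 are not exact, since most of their values were not above background.

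**Figure D1:**
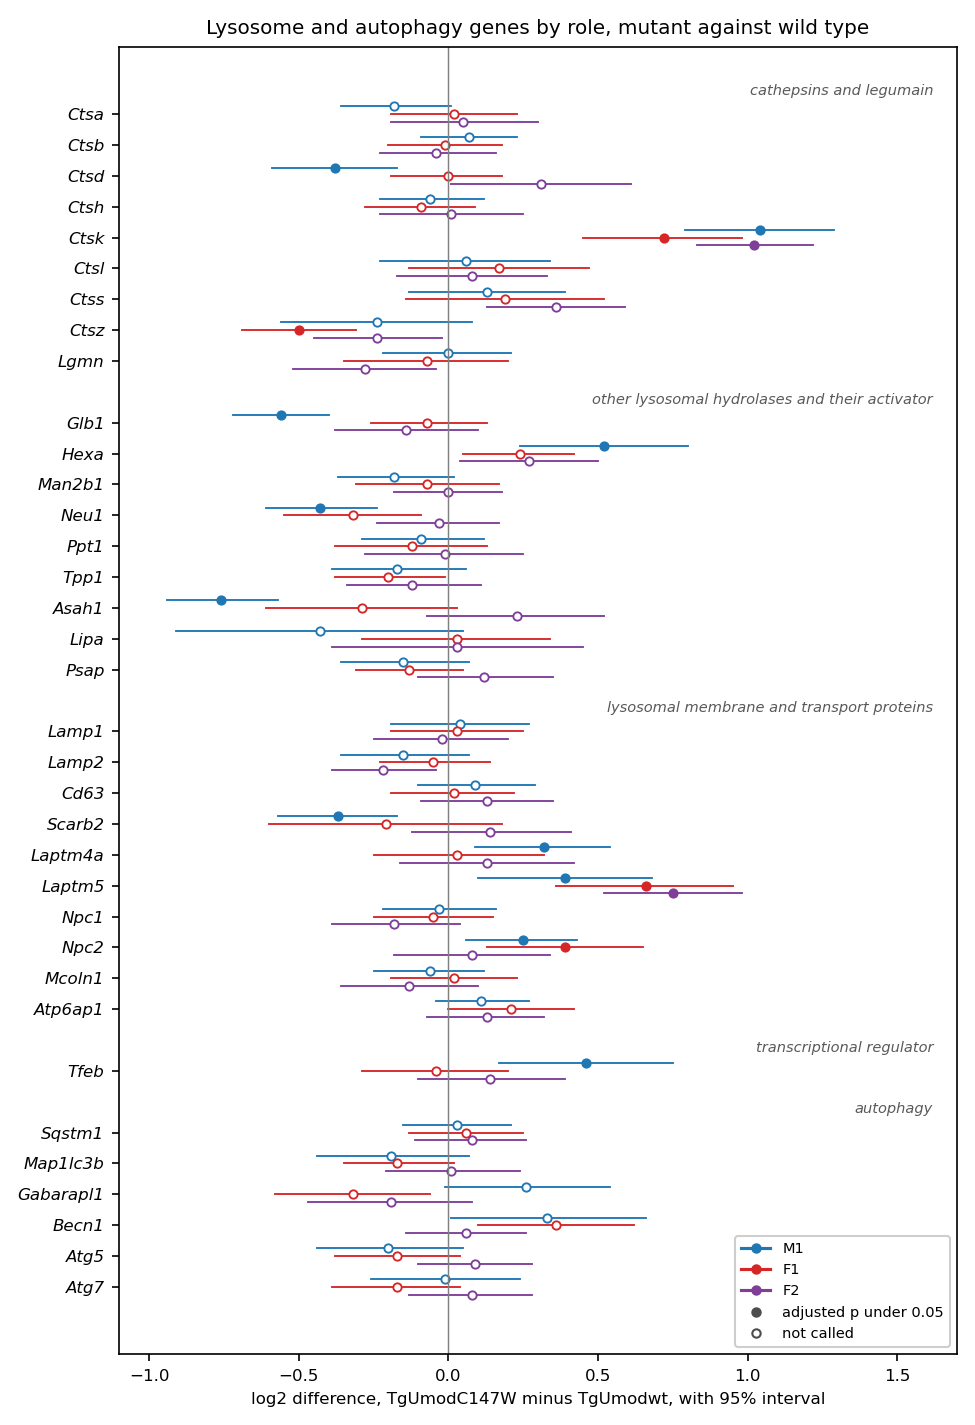
The log2 difference of each member, TgUmodC147W minus TgUmodwt, is shown by role for M1, F1 and F2, with its 95% interval, and a filled point marks an adjusted p under 0.05. *Ctsk* lies to the right of 0 in every comparison (1.04, 0.72 and 1.02). The hydrolases *Asah1*, *Glb1* and *Neu1* lie to the left of 0 in M1 (−0.76, −0.56 and −0.43), and most other members lie around 0. The points of *Ctss*, *Lipa* and *Tfeb* rest on values that were mostly not above background.

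**Figure D2:**
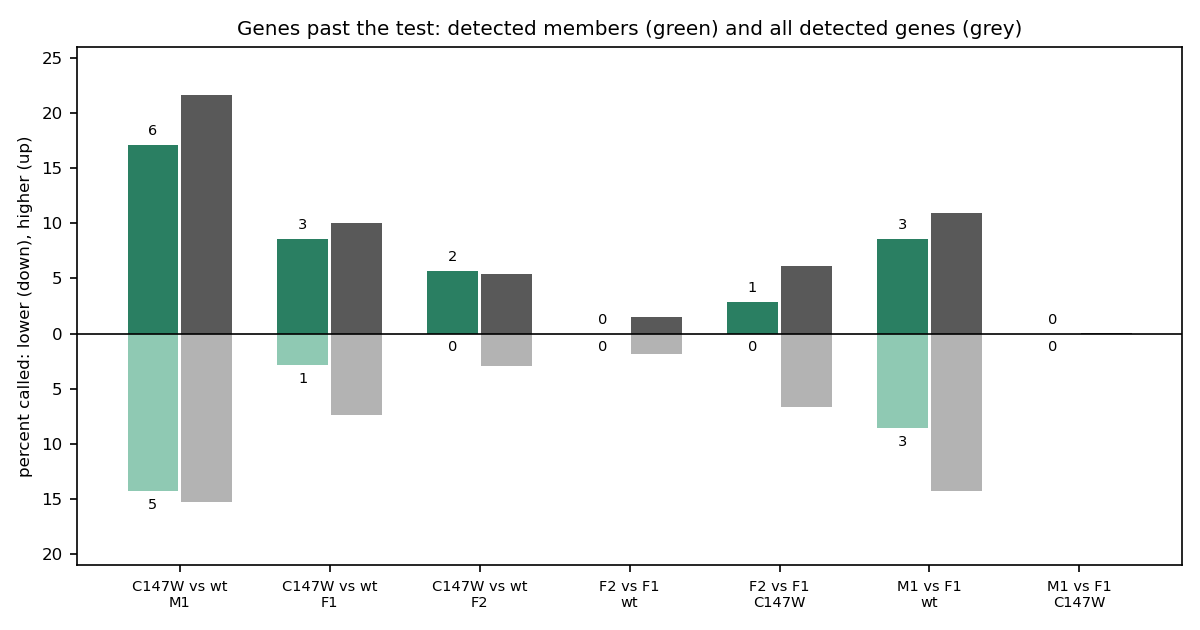
The percent of the 35 members (green) and of all 10378 genes (grey) that passed the test is shown for 7 comparisons of 8 arrays, with higher genes upward, lower genes downward and the number of members printed at each bar. Members were 6 higher and 5 lower in mutant M1, and the green bars are below or near the grey ones.

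The member with the largest difference in each comparison of genotype was *Ctsk*, which encodes cathepsin K, a cysteine protease that cleaves collagen and is best known from osteoclasts. Its levels were 8.38, 8.59, 8.49 and 8.63 in the TgUmodwt M1 arrays and 9.54, 9.38, 9.47 and 9.87 in the TgUmodC147W M1 arrays. Every mutant male was above every wild type male. The group means were 8.52 ± 0.11 and 9.56 ± 0.21 (SD, n = 4 each), a difference of 1.04 with a standard error of 0.11, or a fold of 2.06 (limma, adjusted p = 5.85e-05).

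In F1 kidneys *Ctsk* measured 8.83, 9.19, 9.04 and 9.06 in TgUmodwt and 9.57, 9.99, 9.58 and 9.84 in TgUmodC147W mice. The groups did not overlap, with the *Xist*-low array the highest of all 8. The difference was 0.72 with a standard error of 0.12 (fold 1.64, limma, adjusted p = 0.00339), and 0.64 without that array (adjusted p = 0.0106). In F2 kidneys the levels were 8.71, 8.51, 8.70 and 8.63 in TgUmodwt and 9.56, 9.62, 9.78 and 9.68 in TgUmodC147W mice. Again each mutant was above each wild type, by nearly the same amount as in males. The difference was 1.02 with a standard error of 0.09, a fold of 2.03 (limma, adjusted p = 8.99e-05).

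*Ctsz*, for the carboxypeptidase cathepsin Z, went the other way in females of 1 month. It measured 10.55, 10.58, 10.47 and 10.51 in TgUmodwt and 10.12, 9.89, 10.00 and 10.10 in TgUmodC147W F1 kidneys. All 4 mutants were below all 4 wild types, and the *Xist*-low array was the lowest. The difference was −0.50 with a standard error of 0.09 (limma, adjusted p = 0.00399), and −0.45 without that array (adjusted p = 0.0142). A dimmer *Ctsz* probe gave −0.58 (adjusted p = 0.00246), and −0.61 without that array (adjusted p = 0.00616). In M1 and in F2 the difference was −0.24 in both, short of the test (limma, adjusted p = 0.224 and 0.187).

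*Ctsd*, for the aspartic protease cathepsin D, measured 7.72, 7.50, 7.64 and 7.70 in TgUmodwt and 7.40, 7.13, 7.36 and 7.14 in TgUmodC147W M1 kidneys. The mutants lay below the wild types with no overlap. The levels were low, though above background on all 24 arrays, where the lowest signal above background was 6.24 to 6.74. The difference was −0.38 with a standard error of 0.09 (limma, adjusted p = 0.00941), but with arrays scaled to a common median it was −0.23 (adjusted p = 0.127). In F1 *Ctsd* differed by 0.00 and in F2 by 0.31 (adjusted p = 0.989 and 0.223). Leaving out TgUmodC147W F2 replicate 1 brought the F2 difference to 0.44 (adjusted p = 0.0481).

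The other cathepsins with a level, *Ctsa*, *Ctsb*, *Ctsh* and *Ctsl*, differed by −0.18 to 0.17 over the 3 comparisons and none passed. *Lgmn*, the asparaginyl endopeptidase legumain that processes other cathepsins, differed by 0.00, −0.07 and −0.28 in M1, F1 and F2 (adjusted p = 0.974, 0.758 and 0.165). The F2 value passed on scaling to a common median (−0.46, adjusted p = 0.0383) and without TgUmodwt F2 replicate 1 (−0.37, adjusted p = 0.0485). *Ctss*, a cathepsin of antigen-presenting cells, was above background on 0 of 4 TgUmodwt arrays in each of M1, F1 and F2 and on 1, 1 and 2 of 4 TgUmodC147W arrays. Of the 9 cathepsins and legumain measured, 1 was higher and 1 lower in M1, 1 and 1 in F1, and 1 and 0 in F2. Over all genes 21.6% were higher and 15.3% lower in M1, 9.99% and 7.41% in F1, and 5.4% and 2.96% in F2.

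Of the 9 other hydrolase genes measured, 3 were lower, 1 was higher and 5 did not pass in M1, with a median of −0.18, where 15.3% of all genes were lower and 21.6% higher. *Asah1*, which encodes acid ceramidase, measured 13.34, 13.33, 13.23 and 13.46 in TgUmodwt and 12.57, 12.56, 12.48 and 12.72 in TgUmodC147W M1 kidneys. The groups were far apart for their spread. The difference was −0.76 with a standard error of 0.09, 1.69-fold lower (limma, adjusted p = 7.54e-05), and its other probe was lower by more than that (adjusted p = 6.47e-05). In F1 *Asah1* differed by −0.29 (adjusted p = 0.221) and in F2 by 0.23 (adjusted p = 0.373).

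*Glb1* encodes the lysosomal β-galactosidase, which removes terminal galactose from glycolipids and glycoproteins. It measured 12.78, 12.76, 12.74 and 12.82 in TgUmodwt and 12.19, 12.20, 12.29 and 12.17 in TgUmodC147W M1 kidneys. The wild type males were all above the mutant males. The difference was −0.56 with a standard error of 0.07, 1.48-fold lower (limma, adjusted p = 0.000179), and −0.62 on another probe (adjusted p = 0.00209).

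The female groups were close to each other for *Glb1*. The F1 levels were 12.23, 12.30, 12.11 and 12.40 in TgUmodwt and 12.22, 12.17, 12.23 and 12.15 in TgUmodC147W mice, which overlap. The difference was −0.07 (limma, adjusted p = 0.663, and −0.06 without the *Xist*-low array). In F2 it was −0.14 (adjusted p = 0.513), from 12.21, 12.23, 12.38 and 12.53 in TgUmodwt and 12.37, 12.05, 12.09 and 12.27 in TgUmodC147W mice. All mutant males, with values of 12.17 to 12.29, lay within the range of the F1 females.

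*Neu1*, for the sialidase that forms a complex with β-galactosidase and cathepsin A, measured 14.29, 14.24, 14.34 and 14.32 in TgUmodwt and 13.91, 13.99, 13.87 and 13.71 in TgUmodC147W M1 kidneys. Here too all mutants were below all wild types. The difference was −0.43 with a standard error of 0.08 (1.34-fold lower, limma, adjusted p = 0.00235). In F1 it measured 13.97, 13.85, 13.94 and 13.94 against 13.67, 13.65, 13.76 and 13.33. These groups did not overlap either, but the difference of −0.32 missed the threshold (adjusted p = 0.0662), and it passed under 7 of the other ways of processing, at 0.0106 to 0.0485. Without the *Xist*-low array, which measured 13.65, the difference was −0.34 (limma, adjusted p = 0.111). In F2 the difference was −0.03 (adjusted p = 0.887). *Ctsa*, the third gene of that complex, differed by −0.18, 0.02 and 0.05.

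*Hexa*, for the α subunit of β-hexosaminidase, which degrades the ganglioside GM2, was the 1 gene of these 9 to rise in M1. It measured 10.29, 10.26, 10.28 and 10.13 in TgUmodwt and 10.63, 10.63, 11.17 and 10.59 in TgUmodC147W M1 kidneys. The groups did not overlap, and replicate 3 stood above the other mutants. The difference was 0.52 with a standard error of 0.13 (fold 1.43, limma, adjusted p = 0.00878). In F1 and F2 it was 0.24 and 0.27 (adjusted p = 0.0819 and 0.159), with no overlap in F1, where the value without the *Xist*-low array was 0.22 (adjusted p = 0.183).

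The remaining hydrolase genes did not pass in any of the 3 comparisons. *Man2b1*, the lysosomal α-mannosidase, *Ppt1* and *Tpp1*, whose loss causes neuronal ceroid lipofuscinoses, and *Psap*, the precursor of the saposins that present lipids to hydrolases, differed by −0.20 to 0.12. *Lipa*, the lysosomal acid lipase, was above background on 1 array, a TgUmodwt M1 array, and its other 23 values have only an upper bound.

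**Figure D3:**
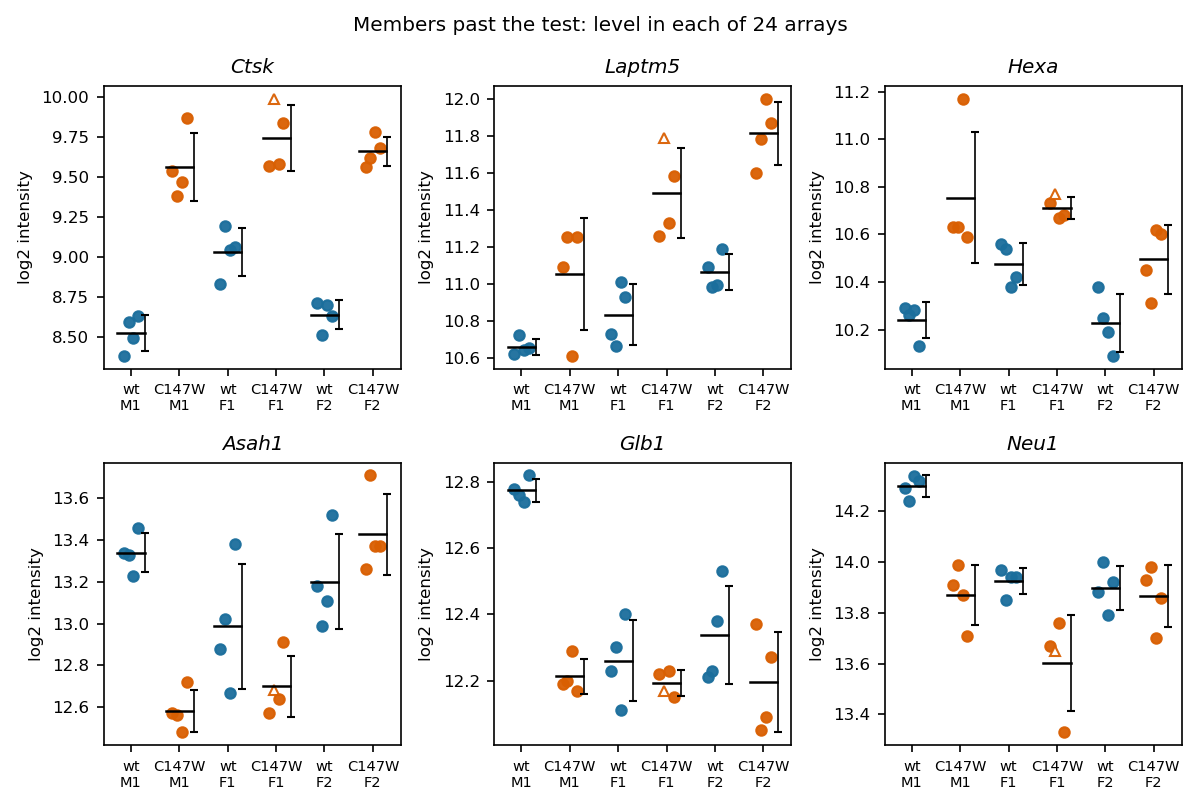
Log2 intensity in each of the 24 arrays is plotted for 6 members that passed the test, with TgUmodwt and TgUmodC147W side by side in M1, F1 and F2. Each point is 1 mouse, the line the mean and the bar the SD of 4 mice, and the open triangle is TgUmodC147W F1 replicate 2. *Ctsk* was higher in the mutants of all 3 comparisons, whereas wild type males stand above the other groups for *Glb1* and *Neu1*.

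Of the 10 genes for membrane and transport proteins, 3 were higher and 1 lower in M1, 2 higher and 0 lower in F1, and 1 higher and 0 lower in F2. The shares of all genes, higher and lower, were 21.6% and 15.3%, 9.99% and 7.41%, and 5.4% and 2.96%. *Laptm5* encodes a lysosomal membrane protein found mainly in blood-derived cells. It measured 10.73, 10.66, 11.01 and 10.93 in TgUmodwt and 11.26, 11.79, 11.33 and 11.58 in TgUmodC147W F1 kidneys. The groups did not overlap, and the *Xist*-low array was the highest. The difference was 0.66 with a standard error of 0.13 (fold 1.58, limma, adjusted p = 0.0084), and 0.56 without that array (adjusted p = 0.0224).

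In F2 kidneys *Laptm5* measured 11.09, 10.98, 10.99 and 11.19 in TgUmodwt and 11.60, 11.78, 12.00 and 11.87 in TgUmodC147W mice. All mutants were above all wild types. The difference was 0.75 with a standard error of 0.10 (fold 1.68, limma, adjusted p = 0.00198). In M1 it measured 10.62, 10.72, 10.64 and 10.65 against 11.09, 11.25, 10.61 and 11.25, and replicate 3 of the mutants was the lowest of all 8. The difference of 0.39 (adjusted p = 0.0395) lost its call when any 1 of 7 of the 8 arrays was left out (0.32 to 0.41, adjusted p = 0.0626 to 0.0967), replicate 3 of the mutants being the exception.

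Many markers of macrophages and of fibroblasts were higher in TgUmodC147W kidneys, as were *Laptm5* and *Ctsk*. Over all genes 21.6%, 9.99% and 5.4% were higher in M1, F1 and F2, and 15.3%, 7.41% and 2.96% lower. Of 15 macrophage markers listed 12 were detected, and 10 of the 12 were higher in TgUmodC147W kidneys in each of M1, F1 and F2, with median differences of 0.85, 1.10 and 1.06 (8 of 12, median 0.92, in F1 without the *Xist*-low array). Their summed intensity was 2561 to 3654 in TgUmodwt and 4666 to 7474 in TgUmodC147W M1, 3039 to 3598 and 5735 to 11058 in F1, and 2989 to 3708 and 8497 to 9670 in F2. The groups did not overlap in any of the 3 comparisons. *Lyz2*, the lysozyme of myeloid cells, rose by 1.65, 2.19 and 2.51 (limma, adjusted p = 0.00316, 0.0011 and 2.85e-06), and by 1.95 in F1 without the *Xist*-low array (adjusted p = 0.00245). *Adgre1*, for the macrophage antigen F4/80, was above background on 0 of 4 TgUmodwt arrays in each comparison and on 2, 3 and 3 of 4 TgUmodC147W arrays, at least 1.38-fold higher in F1 and at least 1.53-fold in F2. In F1 it passed the test with the *Xist*-low array (adjusted p = 0.0273) and not without it (adjusted p = 0.0689). *Csf1r*, the receptor of macrophage colony-stimulating factor, differed by −0.31, −0.34 and 0.45 (adjusted p = 0.0715, 0.112 and 0.0695), and *Cd68* was not analysed here.

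The counts of markers below stand beside 21.6%, 9.99% and 5.4% of all genes higher in M1, F1 and F2, and 15.3%, 7.41% and 2.96% lower. Of the fibroblast markers 7, 4 and 6 of 7 were higher in M1, F1 and F2 (medians 0.99, 0.54 and 0.54). Their summed intensity was 6919 to 7981 in TgUmodwt and 11148 to 14644 in TgUmodC147W M1. In F1 the fibroblast sums were 10087 to 10400 and 12233 to 15369, and in F2 7744 to 8654 and 10359 to 12173. These sums did not overlap between genotypes in any of the 3 comparisons either. Proximal tubule markers were lower for 3, 2 and 0 of 8, and without the *Xist*-low array 3 of 7 fibroblast markers were higher and 0 of 8 proximal tubule markers lower in F1. The summed proximal tubule intensities were 214531 to 227656 in TgUmodwt and 177733 to 194073 in TgUmodC147W M1, beside the falls of *Asah1*, *Glb1* and *Neu1*. In F1 the sums were 189233 to 218930 and 169565 to 186997, and in F2 212270 to 226903 and 205208 to 214753. Of the TAL markers 4, 1 and 0 of 5 were higher, and of the endothelial markers 2, 0 and 1 of 3. Of the intercalated cell markers 2, 0 and 0 of 5 were higher and 0, 0 and 2 lower. Of the podocyte markers 0, 1 and 0 of 2 were lower. The TAL sums were also higher without overlap in M1 (91464 to 100292 against 113502 to 124672) and F1, and overlapped in F2. So did the endothelial sums (2350 to 2727 against 2877 to 3894 in M1). Intercalated cell sums were higher without overlap in M1 (5903 to 6300 against 7004 to 8089). In F2 they were lower without overlap (7935 to 9100 against 7238 to 7438). Podocyte sums were lower without overlap in M1 (2018 to 2271 against 1545 to 1987). Few markers of other blood cells were detected, 2 of 7 for neutrophils (1, 0 and 0 higher), 1 of 8 for T cells (1, 0 and 0 higher) and 0 of 4 for B cells. The part of these cell types in the differences of the lysosomal genes was not tested.

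*Npc2*, a soluble cholesterol-binding protein of the lysosome, measured 9.47 ± 0.06 in TgUmodwt and 9.71 ± 0.11 in TgUmodC147W M1 kidneys, a difference of 0.25 (limma, adjusted p = 0.0377). In F1 it measured 9.56, 9.40, 9.72 and 9.35 against 9.69, 10.11, 9.93 and 9.85, with the *Xist*-low array the highest and replicate 1 of the mutants within the wild type range. The difference was 0.39 (adjusted p = 0.0488), and 0.32 without the *Xist*-low array (adjusted p = 0.13). The M1 and the F1 call were each lost when any 1 of 6 arrays was left out (0.21 to 0.26 and adjusted p = 0.0591 to 0.108 in M1, 0.32 to 0.40 and 0.0672 to 0.13 in F1). In F2 *Npc2* differed by 0.08. *Npc1*, its partner in the membrane, differed by −0.03, −0.05 and −0.18.

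*Laptm4a*, a lysosomal membrane protein of many cell types, measured 12.55, 12.62, 12.64 and 12.49 in TgUmodwt and 12.80, 12.70, 13.15 and 12.92 in TgUmodC147W M1 kidneys. The groups did not overlap, and replicate 3 of the mutants was again the highest. The difference of 0.32 (limma, adjusted p = 0.0335) lost its call without any 1 of 6 arrays (0.23 to 0.34, adjusted p = 0.0533 to 0.0886). *Scarb2*, the receptor that carries β-glucocerebrosidase to the lysosome, measured 8.52, 8.59, 8.52 and 8.65 against 8.17, 8.35, 8.00 and 8.28. The mutants were lower with no overlap, by 0.37 (log2 difference −0.37, adjusted p = 0.00996), but with arrays scaled to a common median the difference was −0.23 (adjusted p = 0.0624).

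*Lamp1*, the most widely used marker protein of the lysosomal membrane, did not pass the test. It measured 14.40, 14.50, 14.47 and 14.30 in TgUmodwt and 14.34, 14.38, 14.75 and 14.35 in TgUmodC147W M1 kidneys. The groups overlapped, with the highest value in mutant replicate 3. The difference was 0.04 in M1 (95% interval −0.19 to 0.27), 0.03 in F1 (−0.19 to 0.25) and −0.02 in F2 (−0.25 to 0.20), with adjusted p = 0.797, 0.894 and 0.939. The intervals thus leave room for small differences in either direction.

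*Lamp2*, the other main membrane protein and the receptor of chaperone-mediated autophagy, had 7 detected probes. The brightest differed by −0.15, −0.05 and −0.22 in M1, F1 and F2, none past the test. A dimmer probe, singled out after its values were seen, measured 7.33, 7.18, 7.14 and 7.13 in TgUmodwt and 6.10, 6.68, 6.24 and 6.52 in TgUmodC147W M1 kidneys. It was lower in every mutant male, but these values lie near the detection limit. The probe was above background on all 4 TgUmodwt arrays of each comparison and on 2, 3 and 3 of 4 TgUmodC147W arrays in M1, F1 and F2, so that its differences are not exact where arrays are under background. They were −0.81 in M1 (limma, adjusted p = 0.000544), −0.52 in F1 (adjusted p = 0.0105, and −0.43 with 0.0251 without the *Xist*-low array) and −0.35 in F2 (adjusted p = 0.129). In M1 2 of the 7 probes were lower, all 7 gave values of −0.81 to −0.15, and the mean of the probes was −0.32 (adjusted p = 0.0125). The call for *Lamp2* thus depended on the probe. *Cd63*, *Mcoln1*, the calcium channel TRPML1, and *Atp6ap1*, an accessory subunit of the proton pump, differed by −0.13 to 0.21 and did not pass.

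*Tfeb* was near the detection limit. It measured 5.81, 5.86, 5.72 and 5.84 in TgUmodwt and 6.02, 6.36, 6.65 and 6.06 in TgUmodC147W M1 kidneys. The mutant values were all above the wild type values, yet 0 of 4 TgUmodwt and 1 of 4 TgUmodC147W arrays were above background. *Tfeb* passed the test in M1 (limma, adjusted p = 0.0186) and is counted among the 6 higher members, but no size is given because 7 of these 8 values have only a bound. Its probe met the detection filter through that 1 TgUmodC147W M1 array alone, in the group where it is high. The test of *Tfeb* in M1 is thus not independent of the filter. With detection in at least 4 of the 8 arrays required, which *Tfeb* does not meet, 5 members were higher in M1. All *Tfeb* values of F1 and F2, from 5.44 to 6.13, were not above background.

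None of the 6 autophagy genes passed the test in M1, F1 or F2 (limma), where 1, 2 and 0 of them had an unadjusted p under 0.05. *Becn1* and *Gabarapl1* passed under some of the other ways of processing, as given below. *Sqstm1*, for the cargo receptor p62 that is itself degraded by autophagy, measured 13.10, 12.99, 13.03 and 12.89 in TgUmodwt and 13.13, 13.02, 13.02 and 12.95 in TgUmodC147W M1 kidneys. These values overlap almost fully. The differences were 0.03 in M1 (95% interval −0.15 to 0.21), 0.06 in F1 (−0.13 to 0.25) and 0.08 in F2 (−0.11 to 0.26).

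*Map1lc3b*, for the LC3B protein of the autophagosome membrane, measured 10.30, 10.25, 10.22 and 10.36 in TgUmodwt and 10.40, 9.94, 9.85 and 10.19 in TgUmodC147W M1 kidneys. The mutants were more scattered and included the highest value. In F1 it measured 10.41, 10.40, 10.54 and 10.45 against 10.35, 10.25, 10.35 and 10.18, with all mutants below all wild types. The differences were −0.19 (95% interval −0.44 to 0.07), −0.17 (−0.35 to 0.02) and 0.01 (−0.21 to 0.24) in M1, F1 and F2 (limma, adjusted p = 0.241, 0.22 and 0.958).

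*Becn1*, for the beclin subunit of the lipid kinase complex that starts the autophagosome, differed by 0.33 in M1 and 0.36 in F1 (limma, adjusted p = 0.0984 and 0.0667) and by 0.06 in F2. Without the *Xist*-low array the F1 difference was 0.43 (adjusted p = 0.0497). The F1 difference of *Becn1* also passed under 4 of the other ways of processing (limma, adjusted p = 0.0418 to 0.0457). That in M1 passed with one fit over all arrays (adjusted p = 0.0415). The other named probe of *Becn1* gave −0.08, 0.00 and −0.04, so that the probes did not move together. *Gabarapl1*, an LC3 relative, differed by 0.26, −0.32 and −0.19 (adjusted p = 0.125, 0.0966 and 0.423), and by −0.22 in F1 without the *Xist*-low array (adjusted p = 0.229). With a trended and robust variance prior its F1 difference passed (limma, adjusted p = 0.0462). *Atg5* and *Atg7*, which attach LC3 to lipid, differed by −0.20 to 0.09.

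**Figure D4:**
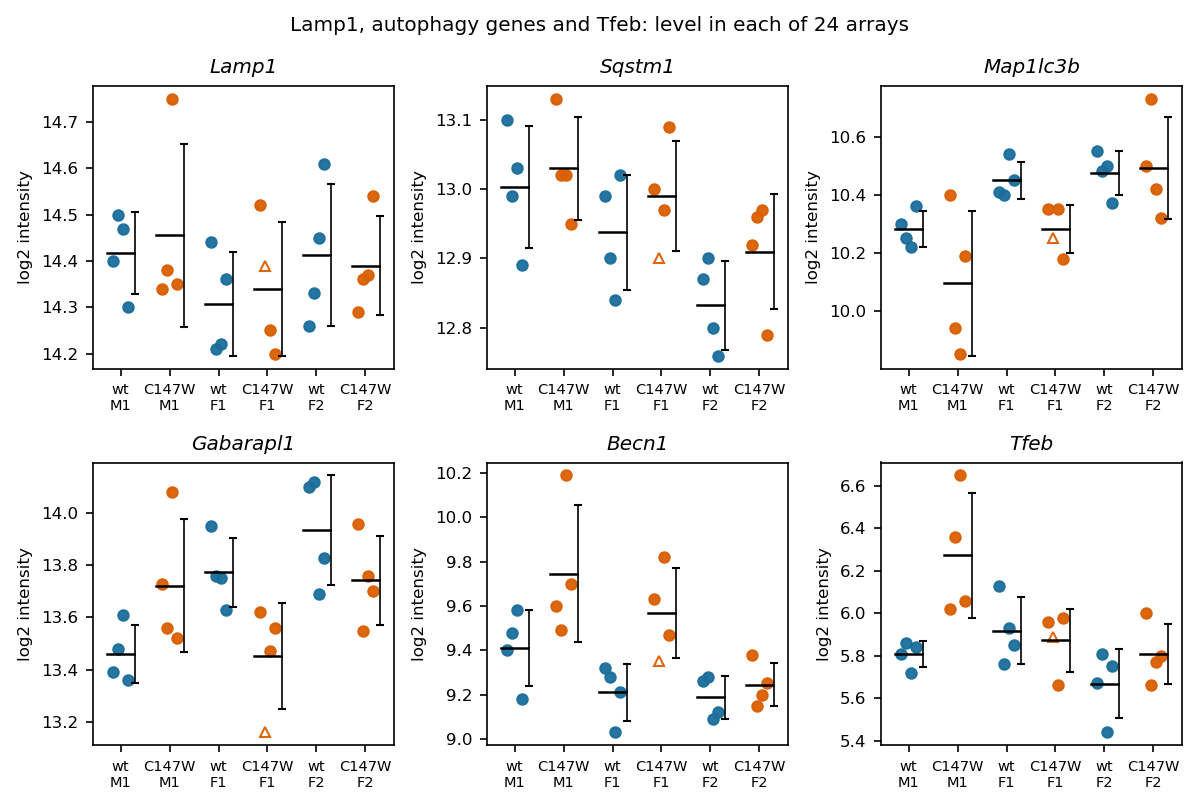
Log2 intensity in each of the 24 arrays is plotted for *Lamp1*, 4 autophagy genes and *Tfeb*, with 1 point per mouse, the mean as a line and the SD as a bar, and the open triangle for TgUmodC147W F1 replicate 2. *Sqstm1* and *Lamp1* overlap between genotypes in every comparison, and TgUmodC147W M1 replicate 3 is the highest array for *Lamp1* (14.75), *Becn1* (10.19) and *Tfeb* (6.65).

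From 1 to 2 months, 0 of 35 members passed in TgUmodwt females (limma), where 1.5% of all genes were higher and 1.89% lower, and 2 higher and 4 lower members had an unadjusted p under 0.05. *Ctsk* had the smallest adjusted p of them, with a difference of −0.39 (adjusted p = 0.0597) and no overlap between F1 and F2. That fit took no account of replicate numbers, and with the number as a block the adjusted p of *Ctsk* was 0.0852 (limma). In TgUmodC147W females 1 member was higher and 0 lower, with 6.09% and 6.7% of all genes, and 5 higher and 2 lower members had an unadjusted p under 0.05. That member was *Asah1*, which measured 12.57, 12.68, 12.64 and 12.91 at 1 month and 13.26, 13.71, 13.37 and 13.37 at 2 months. All mice of 2 months were above all of 1 month. The difference was 0.73 with a standard error of 0.12, a fold of 1.66 (limma, adjusted p = 0.00306), or 0.72 without the *Xist*-low array (adjusted p = 0.0108), and another probe gave 0.47 (adjusted p = 0.0393), which without that array was 0.46 and short of the test (adjusted p = 0.089).

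In TgUmodwt females *Asah1* measured 12.88, 13.02, 12.67 and 13.38 at 1 month and 13.18, 12.99, 13.11 and 13.52 at 2 months, which overlap (difference 0.21, limma, adjusted p = 0.551). The test of whether the genotypes differed in this change gave 0.52 (adjusted p = 0.29), and 0.51 without the *Xist*-low array (adjusted p = 0.394). None of the 35 members passed this interaction of genotype with age (limma), where 0.771% of all genes were higher and 0.501% lower, and 4 higher and 0 lower members had an unadjusted p under 0.05. Comparisons by age use the same arrays as the comparisons by genotype in F1 and F2.

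The interaction of genotype with sex at 1 month, a test of whether the difference between genotypes was larger in males than in females, passed for 0 members upward and 1 downward, with 3.92% and 3.65% of all genes. The member was *Glb1*, with −0.50, a standard error of 0.10 and a 95% interval of −0.71 to −0.28 (limma, adjusted p = 0.00728). Without the *Xist*-low array the value was −0.50 (adjusted p = 0.0127), and another probe gave −0.72 (adjusted p = 0.0244), or −0.79 without that array (adjusted p = 0.0199). For *Asah1* the interaction was −0.47 and for *Gabarapl1* 0.58, short of the threshold (adjusted p = 0.116 and 0.0569), though the dimmer *Asah1* probe gave −0.93 (adjusted p = 0.0217). These 3 values were −0.47, 0.48 and −0.94 without the *Xist*-low array (adjusted p = 0.142, 0.101 and 0.0328). *Gabarapl1* passed this interaction under 6 of the other ways of processing (limma, adjusted p = 0.0268 to 0.0496), and *Asah1* under 2 (adjusted p = 0.033 to 0.0433). For *Neu1* it was −0.11 (adjusted p = 0.679), so that its fall was not shown to differ between the sexes.

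Males and females of 1 month were then compared within each genotype, a comparison chosen after these values were seen and sharing its arrays with those above. In TgUmodwt mice 3 members were higher and 3 lower in males, with 10.9% and 14.3% of all genes. *Glb1* was higher by 0.52 with a standard error of 0.08 (limma, adjusted p = 0.00116), *Neu1* by 0.37 (adjusted p = 0.00319) and *Ctsa* by 0.32 (adjusted p = 0.0301). *Ctsk* was lower, with −0.50 (adjusted p = 0.00356), and so were *Gabarapl1* with −0.31 (adjusted p = 0.0294) and *Hexa* with −0.24 (adjusted p = 0.0463). The calls of *Ctsa*, *Gabarapl1* and *Hexa* were lost without any 1 of 5, 4 and 7 arrays (adjusted p up to 0.0884, 0.0843 and 0.132).

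In TgUmodC147W mice 0 of 35 members differed between males and females (limma), where 0.0385% of all genes were higher and 0.00964% lower, and 2 higher and 1 lower members had an unadjusted p under 0.05. *Glb1* differed by 0.02 between mutant males and females. The count stayed at 0 without the *Xist*-low array, whose place among the mutant females bears on this comparison.

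Other genes of the pathway were counted in 5 further lists. For all 5, the shares over all 10378 genes were 21.6% higher and 15.3% lower in M1. They were 9.99% and 7.41% in F1, and 5.4% and 2.96% in F2. Of 21 measured genes for other lysosomal hydrolases and cofactors, 1 was higher and 8 were lower in M1, 2 and 5 in F1, and 0 and 0 in F2, where 3 higher and 2 lower had an unadjusted p under 0.05. *Galns* and *Arsb*, for sulfatases that degrade glycosaminoglycans, were lower in M1, with differences of −1.01 and −0.76 (limma, adjusted p = 2.98e-05 and 0.000209). *Acp5*, the tartrate-resistant acid phosphatase, was lower as well, with −0.76 (adjusted p = 0.00198). It was above background on 4 of 4 TgUmodwt and 2 of 4 TgUmodC147W M1 arrays, so that its difference is not exact. *Hyal1*, a hyaluronidase, was lower in F1, with −1.91 and a standard error of 0.30 (10.49 ± 0.14 against 8.58 ± 0.76, SD, n = 4, adjusted p = 0.00246), as were *Gm2a*, the activator of β-hexosaminidase, with −0.65, and *Ctsf* with −0.63 (adjusted p = 0.00599 and 0.00283). Without the *Xist*-low array these 3 differences were −1.83, −0.63 and −0.59, all past the test (adjusted p = 0.00946, 0.021 and 0.0111), and the list had 1 higher and 3 lower.

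Of these hydrolases 2, *Hyal1* and *Galns*, were lower and 0 higher from F1 to F2 in TgUmodwt, and 3 higher and 1 lower in TgUmodC147W females (1 and 1 without the *Xist*-low array). Among all genes 1.5% were higher and 1.89% lower in TgUmodwt, and 6.09% and 6.7% in TgUmodC147W females. In the latter *Gm2a* was higher by 0.58 (limma, adjusted p = 0.0134, and 0.56 with 0.04 without that array), and *Hyal1* was lower by 0.93 in TgUmodwt (log2 difference −0.93, adjusted p = 0.0134). The call of *Galns* in TgUmodwt was lost when any 1 of the 8 arrays was left out (adjusted p = 0.058 to 0.129). In wild type mice *Galns* was higher in males by 1.35 (adjusted p = 7.76e-07) and *Arsb* by 0.78 (adjusted p = 9.22e-05). *Galns* passed the interaction of genotype with sex at −1.36 (limma, adjusted p = 5.98e-06, and −1.37 with 2.3e-05 without the *Xist*-low array), as *Glb1* did. *Hyal1* and *Ctsf* passed it in the other direction, at 1.36 and 0.54 (adjusted p = 0.0296 and 0.0191). Without the *Xist*-low array *Ctsf* still passed (0.50, adjusted p = 0.0375) and *Hyal1* did not (1.29, adjusted p = 0.0533). *Hyal1* passed the interaction with age at 1.69 (adjusted p = 0.0404), but not without the *Xist*-low array (1.61, adjusted p = 0.0887) nor without any 1 of 14 of the 16 arrays.

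Of 27 other genes for lysosomal membrane proteins, channels and sorting, 6 were higher and 5 lower in M1, 1 and 1 in F1, and 0 and 1 in F2. *Sort1*, for the sorting receptor sortilin, was higher in M1 by 0.76 and in F1 by 0.40 (limma, adjusted p = 0.000132 and 0.0074, and 0.38 with 0.0264 in F1 without the *Xist*-low array). *Slc29a3*, a nucleoside transporter of the lysosome, was lower in M1, F1 and F2 by 0.76, 0.44 and 0.39 (log2 differences −0.76, −0.44 and −0.39, adjusted p = 0.000424, 0.0104 and 0.0479). Its F1 value was −0.41 without the *Xist*-low array (adjusted p = 0.0355), and its F2 call was lost without any 1 of 7 arrays. *Tpcn2*, an endolysosomal cation channel, was higher in M1 by 0.78 (limma, adjusted p = 0.000684). Its probe was above background on 3 of 4 TgUmodwt and 4 of 4 TgUmodC147W M1 arrays, so that this difference is not exact.

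Of 17 subunits of the proton pump (V-ATPase), 2 were higher and 2 lower in M1 and 0 passed in F1 or F2 (limma, with 1 and 2 lower at an unadjusted p under 0.05). Of 36 other autophagy genes, 2 were higher and 6 lower in M1, 2 and 3 in F1, and 0 in F2 (2 and 2 at an unadjusted p under 0.05). *Map1lc3a*, a relative of *Map1lc3b*, fell by 0.61 in M1 (adjusted p = 0.000202), and *Wdr45*, a lipid-binding autophagy factor, fell by 0.35 (adjusted p = 0.00448). *Atg16l2* was higher by 0.80 in M1 (adjusted p = 3.49e-05), and *Ncoa4*, the receptor that brings ferritin to the autophagosome, by 0.56 in F1 (adjusted p = 0.0114). Without the *Xist*-low array the latter was 0.54 (adjusted p = 0.0366), and *Ncoa4* was the 1 gene of the list past the test in F1.

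Of 16 genes for mTORC1 at the lysosome and for factors related to TFEB, 4 were higher and 2 lower in M1 and 0 passed in F1 or F2 (limma, with 0 in F1 and 1 higher and 1 lower in F2 at an unadjusted p under 0.05). *Mtor*, the kinase itself, was lower in M1 with −0.56 (adjusted p = 0.00898). *Rragd*, a GTPase that recruits mTORC1 to the lysosome, was higher by 0.56 (adjusted p = 0.00121), and *Mlst8*, a subunit of the complex, by 0.37 (adjusted p = 0.013).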

How the data were processed

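Kidneys of 24 mice were profiled with 1 array each. The authors isolated total RNA in TRIzol, made biotin-labelled cRNA and summarised beads in GenomeStudio. The deposited non-normalized table holds linear intensity values without background subtraction, with the authors' detection p-value (each probe against the array's negative controls) in the next column of that deposited file. A second deposited table holds intensity values that the authors normalized by cubic spline.

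The neqc step of limma 3.58.1 (R 4.3.3) used the detection p-values for background, an offset of 16 and quantile normalization of all 24 arrays to log2 values. A limma fit was made per comparison, with 8 arrays (16 for interactions) and Benjamini-Hochberg adjustment across every probe detected (p under 0.01) on at least 1 array. The probe IDs of the deposited tables differ for 30.2% of 45281 probes, and a probe was named only where both gave the same gene. The brightest such probe stands for the gene. For a probe not above background on any array of a group, "at least" folds set the brighter mean against the lowest signal above background on each array.

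Per-array values are given for up to 6 members per comparison with the largest difference past the test and no overlap, for *Tfeb*, *Lamp1*, *Sqstm1* and *Map1lc3b*, and for members past an interaction. Of each further pathway list up to 3 genes per comparison past the test were eligible. The members, the 5 pathway lists, the 10 marker lists and this rule were chosen with earlier results of these data known, and values of other members were added after they were seen. Promoters are from RefSeq. The fits were tested on simulated data. The deviations of mice with the same replicate number from their group means correlated at 0.104 to 0.327 between TgUmodwt F1 and F2, every pair above 0.1, so these numbers were taken as pairs from the data, while the labels name no shared litter or day. In the 4 other comparisons checked the correlations were −0.135 to 0.274, not above 0.1 in every pair. With 4 arrays per group, their number limits the precision. Alternatives were the spline table, no background correction, a common median, an offset of 50, other normalization and detection sets, no filter, one fit, another variance prior, the mean of probes, other naming, a replicate block and leaving out each array.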

Additional observations from a re-analysis of the deposited data

Results flagged for a closer look

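In TgUmodC147W M1, replicate 3 lay far from the other mice of its group for 2 members. Its *Hexa* level was 11.17 where the others measured 10.59 to 10.63, and its *Lamp1* level was 14.75 where the others measured 14.34 to 14.38. In all 78 groups of 4 arrays (13 members in 6 groups) were screened for such an array and 2 were found, while chance alone gives about 1 in 20 groups. Without this array 12 members passed in M1, against 11 with it. *Ctsz* (−0.37, limma, adjusted p = 0.0394) and *Psap* (−0.24, adjusted p = 0.0306) were then lower and *Laptm4a* no longer passed.

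The difference between genotypes in *Glb1* was unlike in the sexes at 1 month, by the interaction test (−0.50, limma, adjusted p = 0.00728). All 4 wild type males measured 12.74 to 12.82 and all 4 mutant males 12.17 to 12.29, while both groups of females of that age measured 12.11 to 12.40.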

How the results depend on the processing

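No member past the test turned its direction under any alternative run. Values near 0 did, such as the median over the members in F2, which was 0.06 and became −0.04 with a common median. With each array left out in turn the members past the test numbered 8 to 12 in M1, 3 to 4 in F1, 2 to 3 in F2, 0 to 1 and 1 to 2 for age in TgUmodwt and TgUmodC147W, 0 to 0 and 1 to 2 for the interactions with age and sex, and 3 to 6 and 0 to 0 for sex in TgUmodwt and TgUmodC147W. In F1 (4) the count was 7 with the authors' spline values, with no background correction, with one fit over all arrays and with a trended and robust variance prior. For age in TgUmodwt (0) it was 2 with a common median, with *Laptm5* (0.42) and *Lgmn* (0.44) higher, and 1, *Ctsk* lower by −0.33 to −0.39, with the spline values, no background correction, an offset of 50, detection in at least 4 arrays, one fit, the trended prior and the mean of probes. *Ctsk* also passed there without TgUmodwt F1 replicate 1 (−0.46). For age in TgUmodC147W (1) it was 2 with the spline values, no background correction and one fit, and 3 with a common median and with the mean of probes. *Ctsd* passed there (0.37) without TgUmodC147W F2 replicate 1. For the interaction with sex (1) it was 2 with the spline values, no background correction, an offset of 50, one fit, the trended prior and the replicate block, and 4 with the mean of probes.

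Scaling to a common median moved the median of all genes to 0.11 in M1 and 0.14 for age in TgUmodwt. The split of all genes, higher and lower, was then 2748 and 1118 in M1 (2238 and 1593 before), 415 and 395 in F2 (560 and 307), 615 and 142 for age in TgUmodwt (156 and 196), 864 and 474 for age in TgUmodC147W (632 and 695), 46 and 69 for the interaction with age (80 and 52) and 588 and 239 for that with sex (407 and 379). The members then numbered 5 higher and 3 lower in M1. With the replicate number as a block, the paired fit for age in TgUmodwt gave 0 members as well, and its calls of *Hyal1* and *Galns* held (adjusted p = 0.0307 and 0.0423). In the other comparisons mice share only a number, and the block gave 11 calls in M1, 3 in F1 and 3 in F2. The slide as a block was not run, since the files used here give no slide. Calls were lost in M1 for *Laptm4a* with a common median, no filter and one fit (adjusted p = 0.0719, 0.0517 and 0.0567), *Laptm5* with no filter (0.0779) and *Npc2* with one fit and the block (0.0777 and 0.0607), and for *Npc2* in F1 with no filter and the block (0.0787 and 0.0876). *Ctsk*, *Asah1*, *Glb1*, *Hexa* and *Neu1* in M1, *Ctsk*, *Laptm5* and *Ctsz* in F1 and *Ctsk* and *Laptm5* in F2 passed under every alternative run. For *Ctss*, *Lipa* and *Tfeb* the signal near background limits what can be said.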
